A study of Mus musculus with 11 samples.

Results

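Tm4sf4, Gprc5a, Ly6m, AA467197, Csta2, Ceacam10, Sgpp1 and Stom are 8 genes of the mouse small intestine whose RNA levels in animals given a herbal preparation lay near those of the high-fat-diet group and away from those of the normal-diet group. They are 8 of the 24250 genes in the table of all libraries, and all 8 were among the 10296 genes tested, those with a mean of at least 1 FPKM (sequenced fragments relative to gene length and library depth) over the 11 libraries. They were selected on their FPKM values in the 3 groups, so their levels and group differences are a description here and carry no test. Csta2 reached the filter only through the normal-diet libraries.

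Mouse small intestine was profiled by RNA sequencing in an ND group (3 libraries, read as normal diet), an HFD group (4 libraries, read as high-fat diet) and a group labelled 5 Substances Powder with Poria (4 libraries, called FSP here; the labels spell the number as a word). The series title speaks of disordered lipid metabolism in obese mice and of this preparation, a traditional Chinese formula that contains the fungus Poria. The labels give no strain, genotype, age, sex, dose, duration or stretch of intestine, and do not state the diet of the FSP mice. Separate animals are not named as the source of the libraries, so the p-values below reflect the spread between samples alone, and that spread may be technical.

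The small intestinal lining is a sheet of absorptive, secretory and immune cells that is renewed from the crypts, and its cells express different genes from the duodenum to the ileum. The 8 genes comprise 3 for cell-surface proteins that were higher in HFD (Tm4sf4, Gprc5a, Ly6m) and 5 genes that were lower: a mitochondrial protein (AA467197), an inhibitor of cysteine proteases (Csta2), a relative of carcinoembryonic antigen (Ceacam10), an enzyme of sphingolipid signalling (Sgpp1) and a membrane scaffold (Stom). A high-fat diet is known to change gene expression in the small intestine widely. In whole tissue, fewer cells of a type and less RNA per cell cannot be told apart.

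Depth, recovered from the low values of 556 genes with a single exon, was 31820000 (HFD 1) to 38400000 fragments (FSP 4). The 13 protein genes of the mitochondrial genome took 40.4% of the FPKM sum of HFD 1 and 12.9% to 26.3% of that of the other 10 libraries. The 10 defining markers of small intestinal epithelium were present in every library. A position score, the difference in mean log2(FPKM + 1) between 14 genes of the distal small intestine and 11 of the proximal, was 2.23 to 4.29 in ND, -0.97 to 0.48 in HFD and 0.97 to 2.94 in FSP. The score was thus lower in every HFD library than in every other library, and the stretch sampled and the group cannot be told apart from the labels.

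Tm4sf4, a 4-pass membrane protein of intestine and liver (chr3:57425314-57441677, plus strand, mm10), was at 50.6, 54.4 and 46.9 FPKM in the ND libraries. In HFD it was at 675, 409, 590 and 684 FPKM, and in FSP at 833, 370, 412 and 501 FPKM. The lowest FSP library was 6.81 times the highest ND library. FSP and HFD overlapped, with FSP 1 the highest of all 11 libraries and FSP 2 the lowest of these 8. The mean was 11.7 times the ND mean in HFD and 10.45 times in FSP. Among the tested genes ranked by FPKM, Tm4sf4 stood between places 1152 and 1355 in ND and between places 58 and 207 in the other 8 libraries.

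Gprc5a, an orphan G protein-coupled receptor known to be induced by retinoic acid (chr6:135065651-135084709, plus strand), was at 8.85, 9.84 and 11.5 FPKM in ND. It was at 65.3, 54.7, 70.2 and 85.8 FPKM in HFD and at 65.9, 60.9, 66.1 and 57.0 FPKM in FSP. The FSP libraries of Gprc5a were close to each other and inside the HFD range. The HFD mean was 6.86 times and the FSP mean 6.22 times the ND mean of 10.1 ± 1.32 FPKM (SD, n = 3).

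Ly6m, a member of the Ly6 family of small cell-surface proteins (chr15:74876987-74897021, minus strand, listed in GENCODE as 2010109I03Rik), was at 45.3, 60.1 and 79.2 FPKM in ND. It was at 142, 113, 209 and 272 FPKM in HFD and at 208, 345, 289 and 209.7 FPKM in FSP. Here the FSP mean of 263 ± 66.3 FPKM (SD, n = 4) was above the HFD mean of 184 ± 71.4 FPKM (SD, n = 4), by 1.43 times, with overlapping libraries. Ly6m is the gene of the 8 whose FSP mean lay furthest beyond the HFD mean, away from ND.

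AA467197 encodes a small mitochondrial protein related to the respiratory-chain subunit Ndufa4, and its transcript is also the host of the microRNA miR-147 (chr2:122636986-122641191, plus strand). The sequences of the microRNA arm in the RefSeq table and of the gene's promoter are shown because the gene had the highest ND level of the 8 and because a host transcript is the part of a microRNA locus that these libraries measure. The arm lies at chr2:122640814-122640837, inside an exon of 3 of the gene's transcripts and the untranslated region of 2 of them, and capitals mark its seed (bases 2 to 8). The microRNA itself was not measured.
mmu-miR-147-5p: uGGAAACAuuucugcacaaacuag

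AA467197 was at 337, 295 and 239.9 FPKM in ND. It was at 32.8, 29.5, 34.5 and 46.2 FPKM in HFD and at 35.7, 117, 36.6 and 55.2 FPKM in FSP. FSP 1 and FSP 3 lay inside the HFD range, FSP 4 just above it, and FSP 2 was apart at a level still 2.05-fold below the lowest ND library. The ND mean was 8.13 times the HFD mean and 4.76 times the FSP mean. By rank, AA467197 went from places 186 to 305 among the tested genes in ND to places 1344 to 1813 in HFD, and it held places 593 to 1653 in FSP.

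Csta2, an intracellular inhibitor of cysteine proteases of the stefin A kind (chr16:36221468-36257444, plus strand, listed in GENCODE as 2010005H15Rik), was the lowest of the 8. It was at 5.79, 4.89 and 2.10 FPKM in ND, at 0.613, 0.473, 0.5004 and 0.238 FPKM in HFD, and at 0.347, 0.482, 0.0930 and 0.649 FPKM in FSP. At these levels the deposited values are whole multiples of what 1 fragment is worth, for a fitted gene length of 564 bases. That length was chosen to bring them closest to whole (mean deviation 0.025 fragments), and the GENCODE exons together cover 639 bases. The FPKM values then correspond to 115, 101 and 44 fragments in ND, 11, 9, 10 and 5 in HFD, and 7, 10, 2 and 14 in FSP. HFD and FSP thus overlapped fully, and both rest on few fragments, which limits any comparison between them. Of the gene's 50-base words, 20.4% also occur in the transcript of the gene model Gm5483, so part of its signal could be split by the counting.

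Ceacam10, a carcinoembryonic antigen relative without a membrane anchor (chr7:24777206-24784657, plus strand), was at 7.78, 11.6 and 12.4 FPKM in ND. It was at 0.0289, 2.59, 1.09 and 0.296 FPKM in HFD and at 0.771, 2.12, 0.458 and 2.53 FPKM in FSP. Fragments were estimated with a length fitted in the same way, 1084 bases, where the GENCODE exons together cover 1496. The estimates are 298, 461 and 497 in ND, 1, 95, 42 and 12 in HFD, and 30, 85, 19 and 105 in FSP. Within HFD the libraries spread from 1 to 95 fragments, the widest relative spread of the 8 genes within a group. In FPKM, which allows for depth, every FSP library fell inside the HFD range. The ND mean was 10.6 times the HFD mean and 7.20 times the FSP mean. Ceacam10 shares 3.0% of its 50-base words with Ceacam1 and Ceacam2.

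Sgpp1, the endoplasmic reticulum phosphatase that removes phosphate from sphingosine 1-phosphate (chr12:75714249-75735729, minus strand), was at 54.0, 35.6 and 26.1 FPKM in ND. It was at 10.95, 14.9, 16.6 and 11.7 FPKM in HFD and at 12.9, 12.9, 12.1 and 18.4 FPKM in FSP. FSP 4 stood above the other 3 FSP libraries, and it was 1.42-fold below the lowest ND library, the smallest gap between FSP and ND among the 8 genes. The ND mean was 2.85 times the HFD mean and 2.74 times the FSP mean.

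Stom, stomatin, a scaffold protein of lipid-rich membrane domains (chr2:35313986-35336976, minus strand), was at 174, 167 and 154 FPKM in ND. It was at 34.2, 42.0, 30.8 and 25.1 FPKM in HFD and at 52.5, 93.1, 63.2 and 51.6 FPKM in FSP. All 4 FSP libraries of Stom lay above all 4 HFD libraries and below all 3 ND libraries, so this gene took an intermediate level, which goes against its description as near HFD. Its FSP mean of 65.1 ± 19.4 FPKM (SD, n = 4) was 1.97 times the HFD mean of 33.0 ± 7.06 FPKM (SD, n = 4), and the ND mean of 165 ± 9.86 FPKM (SD, n = 3) was 2.54 times the FSP mean.

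**Figure D1:**
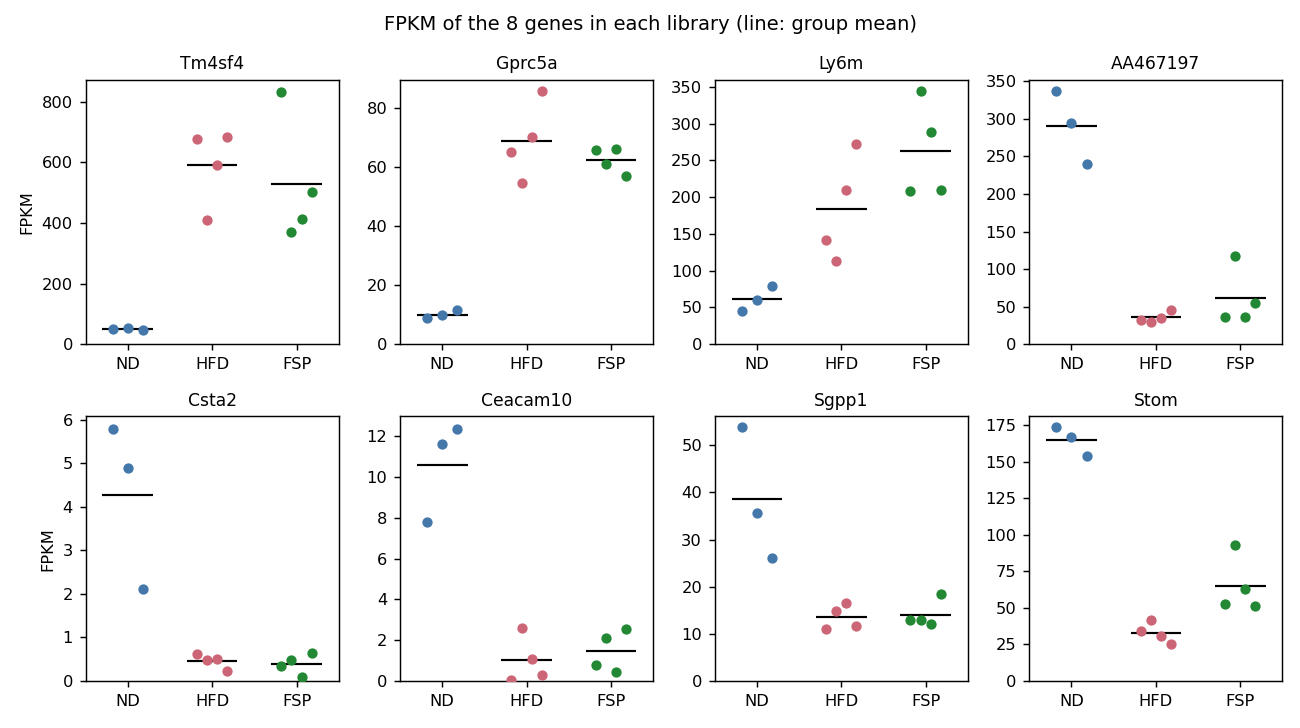
FPKM of the 8 genes in each library (linear axes from 0, a scale of its own for each gene), with ND, HFD and FSP side by side; points are libraries and short lines are group means. In every panel the HFD and FSP points lie on the same side of all 3 ND points, and only for Stom do the 4 FSP points clear the 4 HFD points.

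For all 8 genes neither HFD nor FSP overlapped ND, a pattern the choice of the genes fixes. Over the tested genes, HFD and ND did not overlap for 42.9%, FSP and ND for 16.4%, and 12.3% had both groups beyond every ND library on the same side. FSP and HFD overlapped for 7 of the 8, Stom being the exception, while 10.8% of tested genes had no overlap between these groups. The choice of the genes favours that overlap too.

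Log2 changes here are of FPKM + 1, which makes those of weakly expressed genes too small. The limma log2 changes of the higher genes in HFD against ND were 3.49 for Tm4sf4 (SE 0.26), 2.65 for Gprc5a (SE 0.15) and 1.52 for Ly6m (SE 0.30). Their values in FSP against ND, with the same standard errors, were 3.29, 2.53 and 2.08. Both comparisons share the ND libraries, so their likeness is not independent. Of the lower genes, AA467197 was at -2.99 (SE 0.34) in HFD and -2.39 in FSP, and Ceacam10 at -2.68 (SE 0.42) and -2.30. Stom was at -2.31 (SE 0.21) and -1.37, Csta2 at -1.78 (SE 0.25) and -1.86, and Sgpp1 at -1.40 (SE 0.23) and -1.35.

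All 8 were past the limma threshold (Benjamini-Hochberg adjusted p of 0.05) in HFD against ND, as were 20.5% of tested genes, of which 5.36% were higher and 15.1% lower. All 8 were also past it in FSP against ND, as were 1.03% of tested genes, 0.699% higher and 0.33% lower. These contrasts chose the genes, so the counts are given without a reading. The FSP count rests on the ND libraries: without ND 2, Tm4sf4 and Gprc5a were the only genes of the 8 past the threshold in both contrasts, of 12 genes in all, and without ND 1, 3 of the 8 were, of 17. Leaving out FSP 1 left 6 of the 8, of 33.

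**Figure D2:**
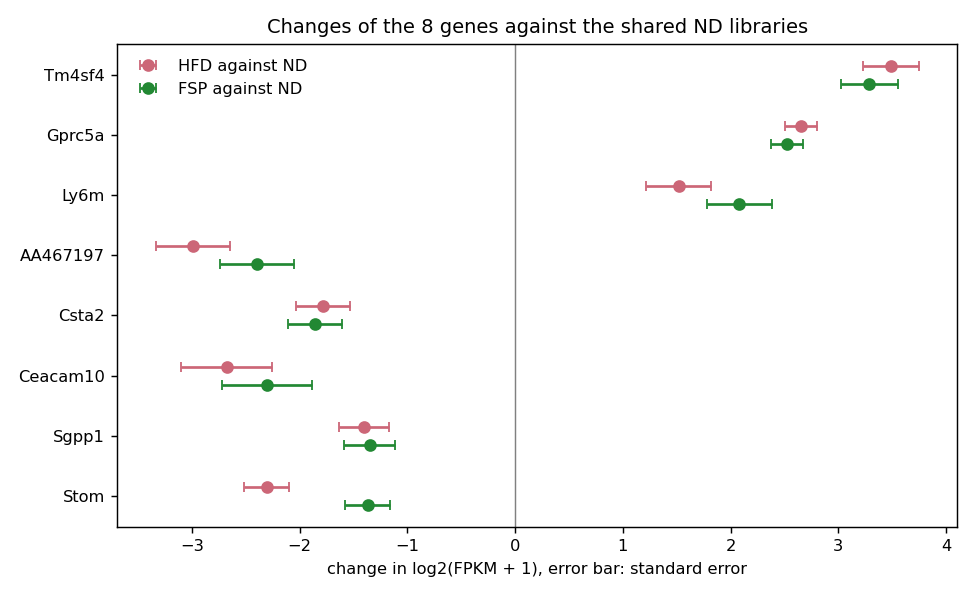
Limma log2 changes of the 8 genes in HFD against ND and in FSP against ND on the log2(FPKM + 1) scale. Points are estimates and bars are 1 standard error. Both contrasts lie on the same side of 0 for each gene, a pattern the choice of the genes fixes.

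The direct comparison of FSP with HFD does not involve the ND means, and ND enters only the shared estimate of the spread. Nearness of FSP to HFD was part of the choice of the genes, so small changes here are no finding of their own. Its log2 changes were -0.20 for Tm4sf4 (SE 0.24), -0.07 for Csta2 (SE 0.23), 0.05 for Sgpp1 (SE 0.22), 0.38 for Ceacam10 (SE 0.39), 0.56 for Ly6m (SE 0.28) and 0.60 for AA467197 (SE 0.32). Gprc5a was at 62.5 ± 4.39 FPKM in FSP (SD, n = 4) against 69.0 ± 12.9 FPKM in HFD (SD, n = 4). Stom, at 0.94 (SE 0.20), was the only one of the 8 past the threshold here, where 3.74% of tested genes were, 2.83% higher and 0.913% lower. That call ended without a filter, under median-ratio scaling, under quantile normalization, with the position score as a covariate, when only FSP and HFD were fitted, and without ND 2, HFD 1, HFD 3, HFD 4 or FSP 4.

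The place of FSP can be put as a percentage of the way from the HFD mean (0%) to the ND mean (100%) on the log2(FPKM + 1) scale. The FSP mean stood at 40.7% for Stom, 20.1% for AA467197, 14.1% for Ceacam10, 5.78% for Tm4sf4, 4.72% for Gprc5a, 3.64% for Sgpp1, -4.13% for Csta2 and -37.0% for Ly6m. A negative value lies beyond HFD. The median over the 8 was 5.2%, and it was 15.3% over the 91 other genes that were called the same way in both contrasts. The 8 were chosen for FSP levels near HFD, which favours a low median, so these medians are given without a reading.

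Single FSP libraries differed in this measure. The median over the 8 genes was -1.80% in FSP 1, 12.2% in FSP 2, -4.01% in FSP 3 and 15.8% in FSP 4. FSP 2 held the highest value of the 4 for Stom (64.6%), AA467197 (56.8%) and Tm4sf4 (18.4%), and the lowest for Ly6m (-64.9%). FSP 4 held the highest for Ceacam10 (36.9%), Sgpp1 (31.0%), Csta2 (10.5%) and Gprc5a (9.56%). For Stom all 4 FSP libraries stood between 28.2% and 64.6%, whereas AA467197 ranged from 0.635% to 56.8%, so its mean rests largely on FSP 2. No library stood nearest to ND for every gene.

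**Figure D3:**
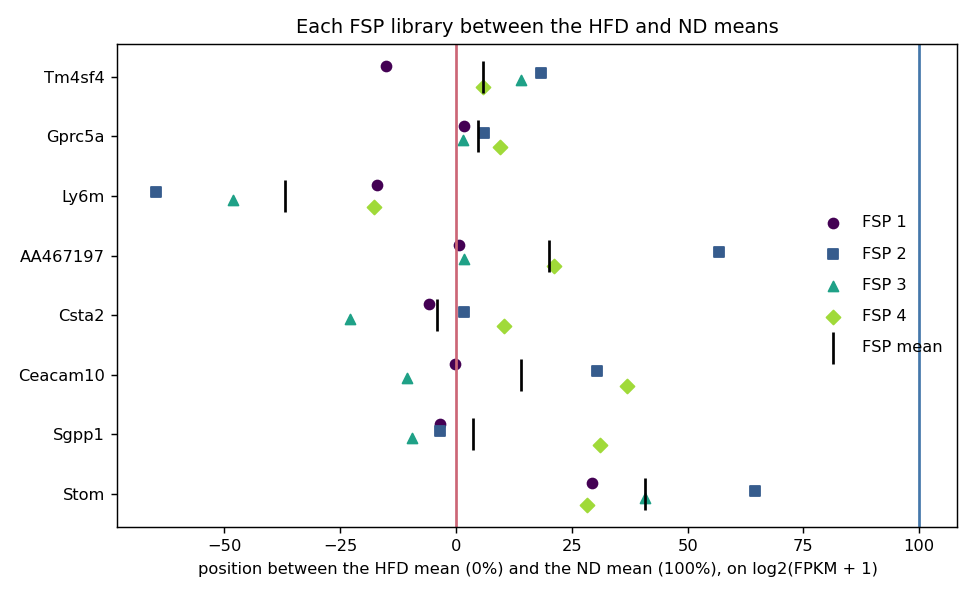
Position of each FSP library (points) and of the FSP mean (bar) for the 8 genes, in percent of the way from the HFD mean (0%) to the ND mean (100%) on the log2(FPKM + 1) scale. Ly6m lies to the left of 0% in all 4 libraries and Stom to the right of 28% in all 4, and AA467197 spreads from 0.635% to 56.8%.

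Because the position score moved with the groups, the members were set against it library by library. FSP 1, FSP 2 and FSP 4 had scores of 2.53, 2.44 and 2.94, inside the ND range and above the 2.23 of ND 3. In these 3 libraries all 8 genes lay on the HFD side of ND 3, which the choice of the genes fixes at any score, so only the sizes are given. Tm4sf4 was at 833, 370 and 501 FPKM against 46.9 in ND 3, and Stom at 52.5, 93.1 and 51.6 FPKM against 154. The narrowest relative gap to ND 3 was that of Sgpp1 in FSP 4, at 18.4 FPKM against 26.1. Sgpp1 was at 12.9 FPKM in both FSP 1 and FSP 2. Within ND, where the score was 4.29 in ND 1, 3.46 in ND 2 and 2.23 in ND 3, Sgpp1, Csta2, AA467197 and Stom had their highest value in ND 1 and their lowest in ND 3, and Ly6m, Gprc5a and Ceacam10 their lowest in ND 1 and their highest in ND 3. For HFD no such matching was possible, since no HFD score reached the range of ND.

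With the position score as a covariate, the FSP-against-ND change was 3.29 for Tm4sf4 (SE 0.32) and 2.33 for Gprc5a (SE 0.14). It was -2.22 for AA467197 (SE 0.41) and -1.26 for Stom (SE 0.25). In this fit 4 of the 8 (Tm4sf4, Gprc5a, Ly6m and Csta2) were past the threshold, as were 0.282% of tested genes. The same FSP and ND values chose the genes, so that count is given without a reading. In HFD against ND the same fit gave 3.49 for Tm4sf4 (SE 0.62) and 1.99 for Gprc5a (SE 0.27), but 0.08 for Ly6m (SE 0.53), -0.23 for Sgpp1 (SE 0.39) and -0.47 for Csta2 (SE 0.39). None of the 8 was past the threshold there, as was no gene of the 10296 by limma, of which 962 had an unadjusted p under 0.05. The scores of HFD and ND do not overlap, so score and group cannot be told apart.

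**Figure D4:**
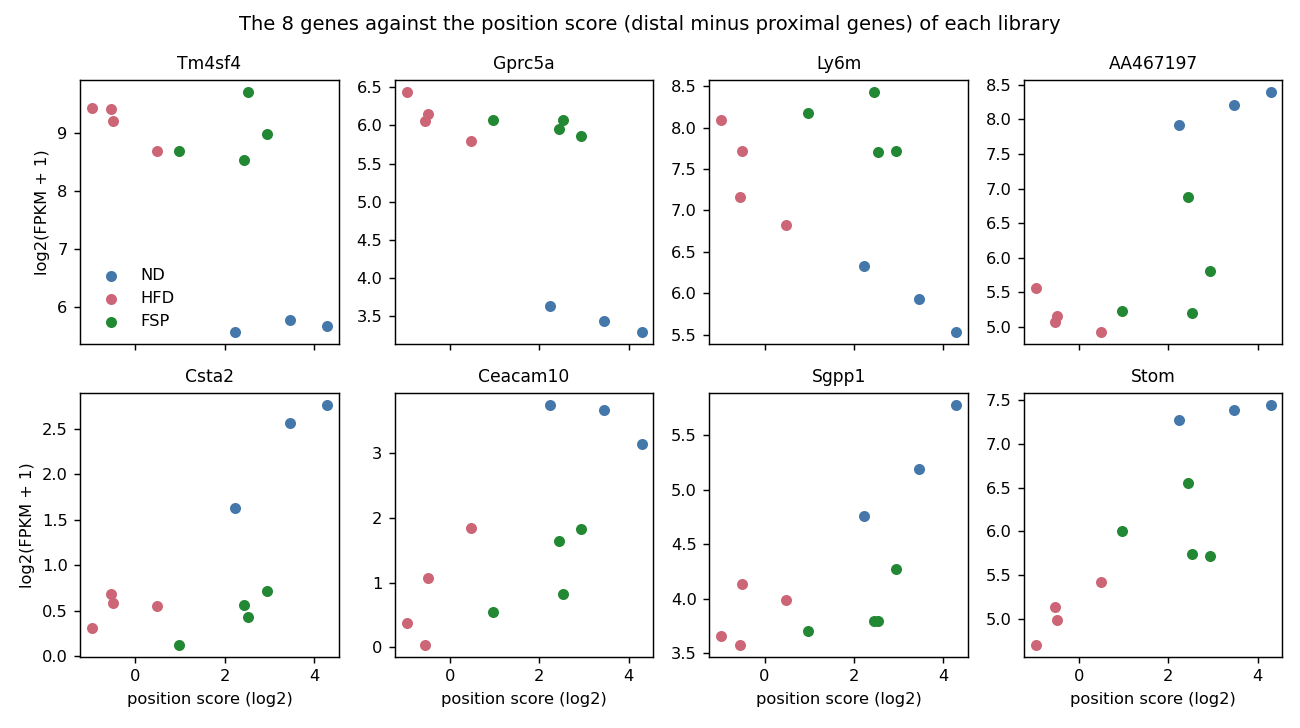
Log2(FPKM + 1) of the 8 genes against the position score of each library (distal minus proximal genes, log2), coloured by group. At scores between 2 and 3, where ND 3 and 3 FSP libraries lie together, the FSP points of each gene lie on the HFD side of the ND 3 point, as the choice of the genes fixes.

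Relatives of each gene, taken from lists of families and pathways, were tested in the same limma fit. The median log2 change of all tested genes was -0.21 in HFD against ND, -0.07 in FSP against ND and 0.12 in FSP against HFD. Median-ratio scaling moved the first of these from -0.21 to 0.00. With the calls of relatives goes the number of the 19 alternative settings under which they ended. With the position score as a covariate every call in HFD against ND ended.

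Of the other tetraspan genes of the Tm4sf list 3 were tested, and none was past the threshold in any of the 3 comparisons by limma. Tm4sf5 was at 429.5 ± 120 FPKM in ND (SD, n = 3), 679 ± 241 in HFD and 835 ± 91.4 in FSP (SD, n = 4 each). Its log2 change was 0.62 in HFD against ND (limma adjusted p = 0.134) and 0.99 in FSP against ND. A call was gained in 2 of the 19 alternatives for the first and in 1 for the second. Tm4sf20 was at 255 ± 35.2, 305 ± 47.5 and 279 ± 108 FPKM. In ND, Tm4sf4 stood below both of these paralogs, and in HFD its mean lay between those of Tm4sf20 and Tm4sf5. In HFD 1, however, Tm4sf4 was above Tm4sf5, at 675 against 373 FPKM.

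The paralogs of Gprc5a, Gprc5b and Gprc5c, were under the filter. Of 13 tested genes of retinoid handling and response, 3 rose and 3 fell in HFD against ND, 2 rose in FSP against ND and none was past the threshold in FSP against HFD. The genes that rose in both were Rbp2, the intestinal retinol-binding protein, and Rdh7, a retinol dehydrogenase. Rbp2 was at 1601 ± 743 FPKM in ND (SD, n = 3), 10530 ± 1569 in HFD and 6141 ± 2007 in FSP (SD, n = 4 each), with log2 changes of 2.81 (limma adjusted p = 0.000725) and 1.98 (limma adjusted p = 0.0219). Rdh7 had log2 changes of 2.02 and 1.63. The FSP calls of Rbp2 and Rdh7 each ended in 5 of the 19 alternatives, among them those without ND 1, ND 2 or FSP 1. The list median was 0.22 in HFD and 0.13 in FSP against ND.

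Of 10 tested relatives of Ly6m with a Ly6 and uPAR domain, 1 was past the threshold. Lypd8l was at 21.4 ± 8.69 FPKM in ND (SD, n = 3), 216 ± 83.2 in HFD and 37.6 ± 29.4 in FSP (SD, n = 4 each). Lypd8l rose in HFD against ND by 3.25 (limma adjusted p = 0.00243) and fell by 2.69 on the log2 scale in FSP against HFD (limma adjusted p = 0.0196). The second of these calls ended in 5 of 19 alternatives, among them those without HFD 3 or FSP 4. Lypd8l thus stood 82.8% of the way from HFD to ND, where Ly6m stood at -37.0%. Ly6d had a wide spread, from 1.36 to 38.1 FPKM over the HFD libraries, and missed the threshold in HFD against ND (limma adjusted p = 0.0754), with a call gained in 5 of 19 alternatives.

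Csta2 inhibits cysteine cathepsins, the proteases of the lysosome. The tested list held 11 cathepsins and legumain-type proteases, and which of them Csta2 inhibits was not tested. Of these, 3 fell in HFD against ND and none rose: Ctsc by 1.31, Lgmn by 1.16 and Ctss by 0.97 on the log2 scale (largest limma adjusted p = 0.00548). The call of Ctss ended under median-ratio scaling. None was past the threshold in FSP against ND, and Lgmn rose in FSP against HFD by 0.82 (limma adjusted p = 0.0281), a call that ended in 10 of 19 alternatives. Under median-ratio scaling and under quantile normalization 1 cathepsin was also called higher in HFD. Cstb, the stefin B gene, was at 59.4 ± 3.31 FPKM in ND (SD, n = 3), 43.5 ± 6.64 in HFD and 62.4 ± 4.75 in FSP (SD, n = 4 each). Its call in HFD against ND (-0.45, limma adjusted p = 0.0317) ended in 8 of 19 alternatives. Of the neutrophil markers, cells in which stefin A genes are abundant, 11 of 11 present were under 0.5 FPKM in every library, with a summed level of at most 0.847 FPKM, and so were 8 of 8 markers of squamous epithelium.

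The 4 other tested genes of the Ceacam family were all past the threshold in HFD against ND: Ceacam1, Ceacam2 and Ceacam20 fell and Ceacam18 rose. Ceacam1, an adhesion receptor of epithelial and immune cells, was at 271 ± 45.6 FPKM in ND (SD, n = 3), 73.1 ± 22.2 in HFD and 158 ± 43.8 in FSP (SD, n = 4 each). Its log2 change was -1.92 in HFD against ND (limma adjusted p = 0.00143), -0.81 in FSP against ND (limma adjusted p = 0.211) and 1.11 in FSP against HFD (limma adjusted p = 0.0409). That last call ended in 12 of 19 alternatives.

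Ceacam20, a microvillus protein of the intestinal brush border, was at 72.5 ± 5.36 FPKM in ND (SD, n = 3), 28.8 ± 1.35 in HFD and 46.6 ± 4.25 in FSP (SD, n = 4 each). Its FSP level was above HFD by 0.67 (limma adjusted p = 0.00956) and below ND by a log2 change of -0.63 (limma adjusted p = 0.0247), calls that ended in 2 and 8 of 19 alternatives. Ceacam18 was at 24.8 ± 1.22, 88.0 ± 24.4 and 58.2 ± 9.02 FPKM. In percent of the way from HFD to ND, Ceacam1 stood at 58.0%, Ceacam2 at 52.3%, Ceacam20 at 51.8% and Ceacam18 at 31.9%, and Ceacam10 at 14.1%. Whether Ceacam10 differs from its relatives in this measure was not tested.

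**Figure D5:**
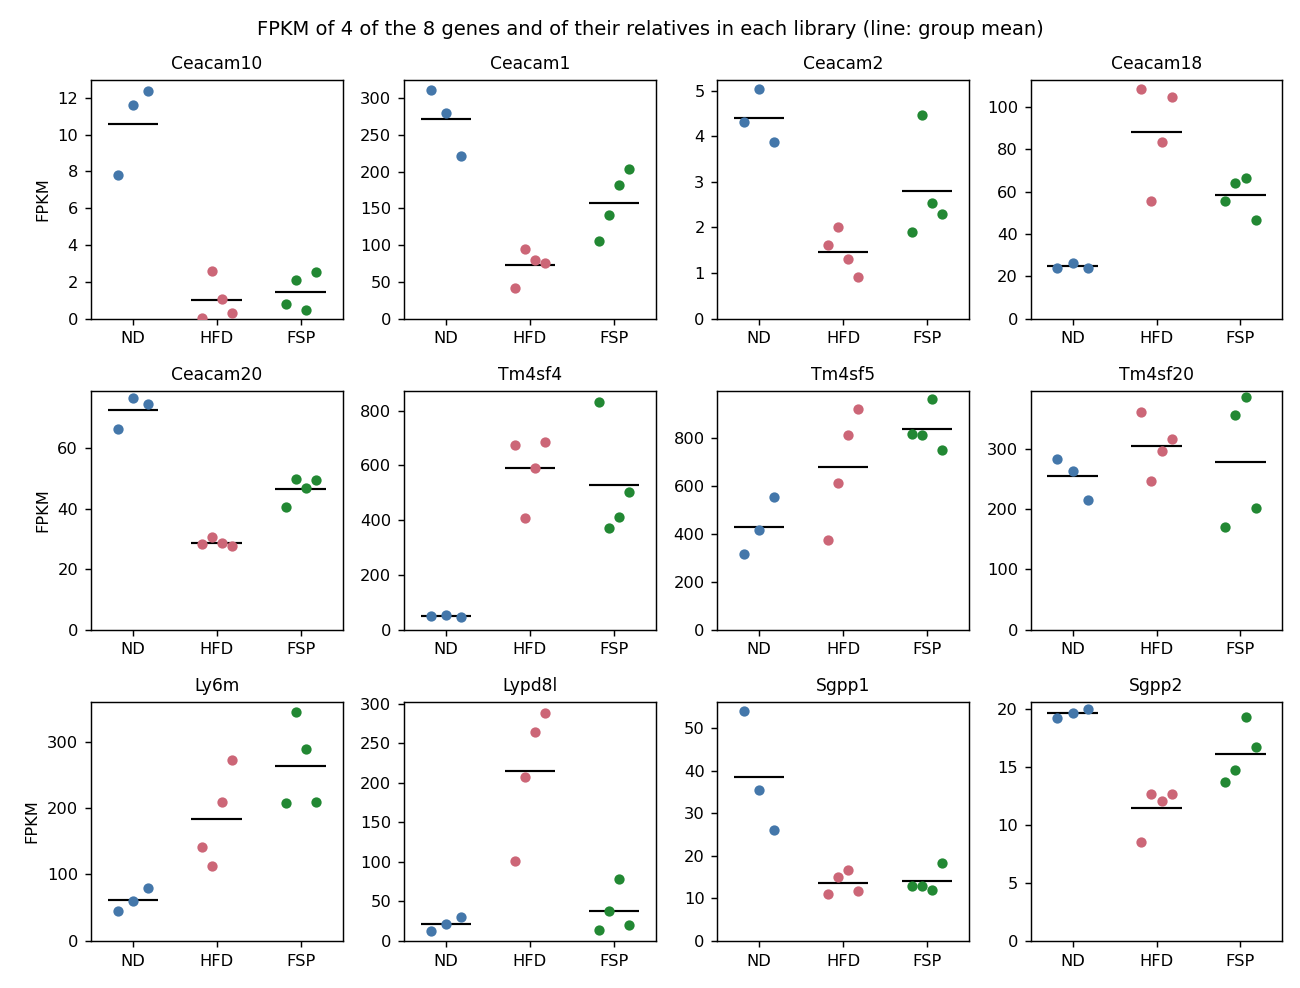
FPKM in each library of Ceacam10, Tm4sf4, Ly6m and Sgpp1 and of relatives of each, by group, with short lines for group means. Ceacam1, Ceacam2, Ceacam20, Lypd8l and Sgpp2 have FSP means between those of HFD and ND, at 51.8% to 82.8% of the way on the log2(FPKM + 1) scale. Ceacam18 stands at 31.9%. The FSP mean of Tm4sf20 also lies between, with overlapping libraries, and that of Tm4sf5 lies beyond HFD, away from ND.

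Sphingosine 1-phosphate is made from sphingosine by the kinases Sphk1 and Sphk2 and is taken back by the phosphatases Sgpp1 and Sgpp2, or broken down. Of 39 other tested genes of sphingolipid enzymes and receptors, 3 rose and 8 fell in HFD against ND, none was past the threshold in FSP against ND by limma, and 3 rose in FSP against HFD. The list medians of -0.22, 0.07 and 0.28 lay within 0.2 of those of all tested genes, and the first became -0.01 under median-ratio scaling. Sgpp2, the paralog, was at 19.6 ± 0.418 FPKM in ND (SD, n = 3), 11.5 ± 1.99 in HFD and 16.1 ± 2.49 in FSP (SD, n = 4 each). It fell in HFD against ND by 0.74 (limma adjusted p = 0.0074), and its FSP values gave a limma adjusted p of 0.432 against ND and 0.103 against HFD. Asah1, the acid ceramidase that yields sphingosine, fell in HFD by 1.37 (limma adjusted p = 0.000959). The call of Asah1 in FSP against HFD (0.71, limma adjusted p = 0.0422) ended in 14 of 19 alternatives. Sphk1, named for its role after its value was seen, rose in HFD by 0.98 (limma adjusted p = 0.0311), a call that ended in 7 of 19 alternatives, and its sign turned with the position score as a covariate.

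None of the 6 tested relatives of Stom in the stomatin and flotillin list was past the threshold in any comparison by limma. Flot1, a flotillin of the same membrane domains, was at 17.4 ± 1.60 FPKM in ND (SD, n = 3), 18.4 ± 3.501 in HFD and 19.5 ± 1.34 in FSP (SD, n = 4 each). The nuclear genes of cytochrome c oxidase, the respiratory complex in which AA467197 is known to take the place of Ndufa4, rose in HFD against ND for 5 of 15 tested and fell for none. Those calls ended in 13 of 19 alternatives for Cox5b, 12 for Cox7b, 7 for Cox6a1, 3 for Cox6b2 and 1 for Cox7a1. In FSP against ND 1 of them, Cox7a1, was past the threshold (1.16, limma adjusted p = 0.0219), a call that ended in 7 of 19 alternatives. Ndufa4 itself was at 368 ± 88.5 FPKM in ND (SD, n = 3), 485 ± 102 in HFD and 491 ± 62.6 in FSP (SD, n = 4 each), with overlapping libraries.

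Levels of marker genes of other cells differed between libraries. The summed FPKM of 12 B and plasma cell markers was 38.8 to 65.01 in ND, 126 to 304 in HFD and 87.6 to 810.6 in FSP, and that of 10 adipocyte markers 85.3 to 105 in ND, 99.2 to 214.5 in HFD and 77.1 to 557 in FSP. The adipocyte markers did not all move together: in HFD 1, Cidec, at 66.4 FPKM, was above every ND library and Fabp4, at 21.0 FPKM, below. Pancreatic acinar markers summed to 5.76 to 7.26 FPKM in ND, 11.6 to 22.02 in HFD and 6.37 to 14.8 in FSP. Of the 8 present, 6 were under 0.5 FPKM in every library, so these sums rest on Clps and Cela1. Clps was at 1.86 to 2.33 FPKM in ND and 7.86 to 16.8 in HFD, while the Cela1 libraries of these groups overlapped. Of 10 colon markers, 7 were tested and 3 fell in HFD against ND, with a summed level of 243 to 360 FPKM in ND, 94.8 to 128 in HFD and 95.3 to 173.5 in FSP. The part of these cells in the levels of the 8 genes was not tested.

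A promoter sequence (250 bases before the RefSeq start) was found in the RefSeq table (GRCm38.p6) for 6 of the 8 genes, not for Gprc5a and Ly6m. Distances below are counted from that start, which can differ from the GENCODE start given above. Of 7 motifs searched on both strands, 3 had no match in the 6. These were the TATA box TATAAA, present in 12.3% of the 32536 promoters searched, the GATA motif AGATAA, present in 9.97%, and an HNF4 motif, CAAAGTCCA, present in 0.39%. TTTATNG matched Tm4sf4, 46 bases before the start (9.74% of all promoters), AGGTCA matched Csta2 (14.0%), and an NF-kB core motif, GGG and CC with 5 bases between, matched Stom, AA467197, Ceacam10 and Sgpp1 (46.0%). CACGTG, the E-box, matched 2 of the 6, AA467197 and Ceacam10, both lower genes, against 6.0% of all promoters. Their stretches around this box, chosen after the search, are shown with the box in capitals, plus strand, to give the context of the rarer of the motifs that more than 1 of the 6 hold. A match is a description of these letters, not of a site. The first lies at chr2:122637755-122637849, its box 82 bases before the RefSeq start at 122637887. GENCODE starts AA467197 earlier, at 122636986, so this stretch lies inside the GENCODE gene, outside its annotated exons. The second lies at chr7:24777087-24777166, its box 20 bases before the RefSeq start at 24777167. GENCODE starts Ceacam10 later, at 24777206. The NF-kB core match of Ceacam10 begins 36 bases before the start and does not overlap the box.
AA467197: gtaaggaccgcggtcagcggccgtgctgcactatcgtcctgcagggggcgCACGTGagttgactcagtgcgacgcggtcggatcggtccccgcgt
Ceacam10: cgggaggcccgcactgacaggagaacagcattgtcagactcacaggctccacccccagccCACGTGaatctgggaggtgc

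The 8 genes belong to 99 genes called the same way in HFD and in FSP against ND (0.962% of those tested), 65 higher and 34 lower, with none called in opposite directions. Of the 99, 26 had an FSP mean at or beyond the HFD mean, and 11 were also called in FSP against HFD, Stom among them. Ordered by the smaller of the 2 absolute log2 changes, Tm4sf4 held place 2, Gprc5a 6, AA467197 7, Ceacam10 8, Csta2 16, Ly6m 23, Stom 30 and Sgpp1 31. The rule for the 8 states no threshold. The 5 other genes with the largest values in this order were Apoa4, Nt5e, Cyp2c55, Cldn4 and Aadac.

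Nt5e, the ecto-5'-nucleotidase CD73, had a mean of 5.73 FPKM in ND, 62.0 in HFD and 53.2 in FSP. Cldn4, a claudin of tight junctions, was at 17.5, 112 and 107 FPKM, and Cyp2c55, a cytochrome P450, at 77.3, 6.58 and 9.51 FPKM. Apoa4, a lipoprotein component secreted during fat absorption, stood 18.2% of the way from HFD to ND and Aadac, a microsomal esterase, 35.1%.

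The genes most like each of the 8 over the 11 libraries were found by the root-mean-square difference of log2(FPKM + 1) after each gene was centred on its mean. All 11 values share the 3 groups, so this is a description. Cldn4 was the nearest gene to both Gprc5a (0.19) and Tm4sf4 (0.52), followed by Tubb2a for Gprc5a (0.39) and Nt5e for Tm4sf4 (0.60). Ly6m was nearest to Clca4a (0.35) and Plek2 (0.40), and AA467197 to Sprr2a3 (0.53) and Cyp2c55 (0.56). Csta2 was nearest to Ifi44 (0.29) and Slc40a1 (0.30), and Ceacam10 to Gsdmc2 (0.526) and C2 (0.527). Sgpp1 was nearest to Tfpi2 (0.24) and Cd38 (0.24), and Stom to Oas1g (0.26) and Pdgfc (0.31). Among the 8 themselves, Csta2 and Sgpp1 were the closest pair (0.29), and Tm4sf4 and AA467197 the most distant (2.80).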

How the data were processed

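Per the labels' protocols, total RNA (TRIzol) was made into libraries with a VAHTS Universal V6 kit. Named tools are fastp, HISAT2, HTSeq and R 3.2.0, on the build mm10, per the submitters' processing notes. Which annotation, strand setting and FPKM tool were used is not given in the sources used here. FPKM per gene and library is what the authors deposited. It is relative to the library's total, so abundant mitochondrial RNA lowers every other value. The single-library tables held identical values, and those of FSP listed a different set of genes (24250) from those of ND and HFD (24294, of which 23609 shared), all 8 members among them.

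The test was limma 3.58.1 (R 4.3.3) on log2(FPKM + 1) of the 10296 genes with a mean of at least 1 FPKM, the 3 groups in 1 fit with an intensity trend, two-sided, with Benjamini-Hochberg adjustment over all tested genes and a threshold of 0.05. The script was tested on simulated data. Depth was recovered from low values of single-exon genes, of which 81.8% to 86.2% were whole fragments to within 0.05. Counts were not rebuilt for all genes, so no count model was used. Places come from GENCODE on mm10 and sequences from RefSeq.

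The 8 members, the gene lists, the tests and the alternatives were chosen with earlier results of these data known. The text names the 8, the 2 most alike genes for each, from each list the nearest paralogs and up to 4 genes with the smallest p against ND, and the 5 further genes of largest change in both contrasts against ND. Alternatives were another pseudocount (0.1), no filter, 3 other scalings, the position score as a covariate, a replicate block, only the groups compared, and each library left out.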

Additional observations from a re-analysis of the deposited data

Results flagged for a closer look

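Sgpp1 in FSP was the only one of 16 groups checked (the 4 HFD and the 4 FSP libraries of each of the 8 genes) in which a library stood apart by Dixon's criterion. FSP 4 was at 18.39 FPKM, and the other 3 FSP libraries at 12.1 to 12.9 FPKM. The gap was 0.871 of the group's range. Chance flags about 1 in 20 groups. Sgpp1 in FSP 4 was still below the lowest ND library.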

How the results depend on the processing

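Over all alternatives, the 8 genes kept the sign of their change in 152 of 152 values in HFD against ND and in 152 of 152 in FSP against ND. The genes were chosen for levels away from ND, which favours a kept sign, so these counts are given without a reading. In FSP against HFD the sign held in 142 of 152, the exceptions being Sgpp1, Gprc5a, Csta2 and Ceacam10. The counts of called genes moved between settings. HFD against ND gave 2109 genes (552 higher, 1557 lower), or 901 higher and 794 lower with median-ratio scaling and 1125 and 1185 with quantile normalization. FSP against ND gave 106 (72 higher, 34 lower), 58 without a filter, 192 with quantile normalization, and 75 higher and 73 lower when rescaled without mitochondrially encoded genes. FSP against HFD gave 385 (291 higher, 94 lower), 117 without a filter, 247 with median-ratio scaling (142 higher, 105 lower) and 76 with only these groups fitted. It gave 249 higher and 194 lower with quantile normalization, and 163 and 128 when rescaled without mitochondrially encoded genes. Genes called the same way in both contrasts against ND numbered 99, 54 without a filter and 181 with quantile normalization. The position score as a covariate left 0, 29 and 0 genes in the 3 comparisons, of which 962, 1028 and 861 had an unadjusted limma p under 0.05, and 0 genes called the same way. It turned the sign of Sphk1 in HFD against ND (-0.21).

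Leaving out each library gave 852 (without ND 2) to 2688 genes in HFD against ND, and 876 without ND 1. It gave 13 (without ND 2) to 205 (without HFD 1) in FSP against ND, with 18 without ND 1, 36 without FSP 1 and 40 without HFD 3. It gave 48 (without FSP 4) to 461 in FSP against HFD, and 12 (without ND 2) to 186 (without HFD 1) called the same way. The pseudocount set the size for the genes at low levels: with 0.1, Csta2 was at -2.90 and -3.19 and Ceacam10 at -4.04 and -3.01 in HFD and FSP against ND. Same-numbered libraries did not pair (r from -0.10 to 0.45, 5 of 10 over 0.1, and 3 of 20 best with their own number), and the replicate block gave 2357, 77 and 337 genes and 71 called the same way. Depth limits mainly Csta2 and Ceacam10 in HFD and FSP.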
